A study of Homo sapiens with 6 samples.

Results

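Ectonucleotidases are enzymes of the cell surface or the secretory route that cut nucleotides and related phosphodiesters outside the cell. The 9 genes described here were taken by symbol from the 26255 symbols of the expression table: the ectonucleotide pyrophosphatase/phosphodiesterase genes ENPP1 to ENPP6, the 5'-nucleotidase gene NT5E and the nucleoside triphosphate diphosphohydrolase genes ENTPD1 and ENTPD3. ENPP4 was selected on its fold change in the libraries labelled shGPR81, where it held place 4 among 103 called rises whose mean reached 1 FPKM and whose groups did not overlap, and the other genes had been added by family name with earlier results of the same libraries known. For these 9 genes the contrast is therefore given as a description, with no test.

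The libraries, 3 in each of 2 groups, were made from MDA-MB-231, an established breast cancer line of mesenchymal character. Cells of the shNT group carried a control hairpin and cells of the shGPR81 group a hairpin against the lactate receptor GPR81, whose gene is HCAR1. According to the methods of the study, both hairpins came in by lentivirus and the cells were selected with puromycin, so that both groups shared the vector and the selection. The methods describe 2 hairpins against GPR81, and which of them the sequenced cells carried is not given in the sources used here. No treatment or time point is named in the labels.

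Extracellular ATP is cut to ADP and AMP by the ENTPD enzymes, of which ENTPD1 is also known as CD39, and AMP is turned into adenosine by NT5E, also known as CD73. ENPP1 cuts ATP to AMP and pyrophosphate and also cuts the immune messenger cGAMP, and ENPP4 cuts diadenosine polyphosphates. NT5E is known as an abundant surface enzyme of mesenchymal breast cancer lines. GPR81 couples to an inhibitory G protein, as some of the receptors for adenosine do, while other adenosine receptors raise cAMP.

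Values are FPKM (fragments per kilobase of transcript, scaled to library size), a level per length that can be compared between genes. Log2 fold changes are differences of log2(FPKM + 0.1), shGPR81 minus shNT, and understate the change of low genes. From the steps of low values, the libraries held an estimated 12111645 to 12949922 reads, with relative depths of 1.0 to 1.07. The basal and mesenchymal markers VIM, CD44, AXL, CAV1 and EGFR all lay above 33 FPKM in every library. These 5 summed to 3733 to 4508 FPKM in shNT and 4461 to 4987 FPKM in shGPR81. Most of this sum was VIM, at means of 3551 FPKM in shNT and 4135 FPKM in shGPR81. CD44 was lower in every shGPR81 library (means of 175.5 and 152.9 FPKM), and AXL, CAV1 and EGFR overlapped between the groups. Of the 8 luminal markers, CDH1, ESR1 and PGR were listed at 0 in every library, while KRT8 was at 132 to 185 FPKM and ERBB2, EPCAM, GATA3 and FOXA1 were also above 0; the list summed to 161.3 to 207.0 FPKM in shNT and 152.6 to 174.0 FPKM in shGPR81. The leukocyte markers summed to 2.24 to 4.29 FPKM in shNT and 1.14 to 1.77 FPKM in shGPR81, nearly all of it CD14, with CD3E listed at 0. The endothelial and fibroblast markers summed to at most 0.136 FPKM, with CDH5 and DCN listed at 0. The part of these marker differences in the results was not tested. The table holds bulk RNA, in which fewer cells with a transcript and less transcript per cell cannot be told apart.

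HCAR1, the targeted gene, stood at 0.968, 1.02 and 1.36 FPKM in the shNT libraries and at 0.978, 0.891 and 0.396 FPKM in the libraries labelled shGPR81. The groups overlapped, with 1 shGPR81 library clearly below the rest. The log2 fold change was -0.57 (SE 0.31) with an adjusted p of 0.38 in limma over all genes, and an exact permutation test (two-sided) returned p = 0.2, with 0.1 as the smallest value possible. Its recovered reads, 129 in shNT and 92 in shGPR81 in sum, gave a ratio of 0.675 (95% interval 0.511 to 0.889, counting error only). The deposited values of this low gene thus do not show a clear fall of the targeted transcript, and the second group is written as the libraries labelled shGPR81. The study itself reported a significant reduction of GPR81 in the cells of both hairpins, by RT-qPCR and western blotting, which are measurements other than these libraries.

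NT5E and ENPP1 were the most abundant of the 9 genes, and both were higher in every library labelled shGPR81 than in any shNT library. ENPP4 was lower in level and had the largest fold change of the 6 that were tested. ENTPD1 was lower in every library labelled shGPR81, ENTPD3 and ENPP3 overlapped between the groups, and ENPP2, ENPP5 and ENPP6 were at or near 0. The plot of levels by library shows the 6 genes that were above 0 in every library.

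**Figure D1:**
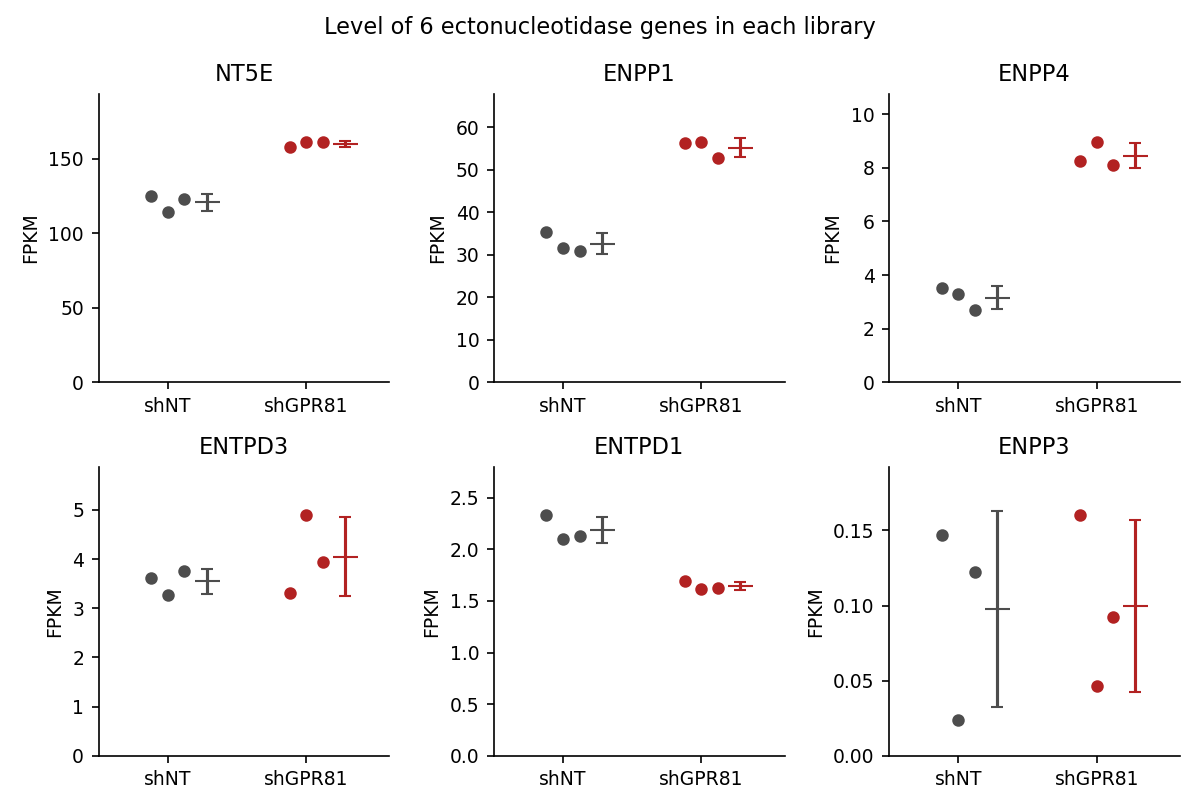
FPKM on linear axes from 0 for the 6 genes above 0 in every library, with points for the 3 shNT and 3 shGPR81 libraries and a bar for the group mean with its SD. The 3 shGPR81 points of NT5E (158 to 162 FPKM), ENPP1 (52.7 to 56.7 FPKM) and ENPP4 (8.10 to 8.98 FPKM) lie above all shNT points, those of ENTPD1 lie below, and those of ENTPD3 and ENPP3 overlap.

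ENPP4 encodes a membrane-bound enzyme that hydrolyses diadenosine triphosphate and is known from the surface of vascular endothelium, where it promotes platelet aggregation. The gene lies on chromosome 6 at 46097726 to 46114425 on the plus strand of GRCh37, the build of all gene positions given here. It stood at 3.50, 3.29 and 2.69 FPKM in shNT and at 8.26, 8.98 and 8.10 FPKM in shGPR81. The lowest shGPR81 library was far above the highest shNT library, and the group means were 3.16 ± 0.42 and 8.45 ± 0.47 FPKM (SD, n = 3 each). The log2 fold change was 1.40 (SE 0.11).

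The depth behind these values was read from reads recovered from the FPKM steps, which are the same measurement in another unit and no further support. The reads of ENPP4 numbered 216, 208 and 166 in shNT and 546, 586 and 529 in shGPR81. The summed reads of 590 and 1661, taken relative to depth, gave a ratio of 2.67 with a 95% interval of 2.42 to 2.93, which covers counting error only. ENPP4 is thus among the better counted of the less abundant genes of the family, and leaving out any 1 library left its log2 fold change between 1.29 and 1.47.

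ENPP1, the surface pyrophosphatase that supplies the mineralization inhibitor pyrophosphate, lies on chromosome 6 at 132129156 to 132216295 on the plus strand. It stood at 35.5, 31.6 and 30.8 FPKM in shNT and at 56.4, 56.7 and 52.7 FPKM in shGPR81. All 3 shGPR81 libraries were above all shNT libraries, with means of 32.6 ± 2.48 and 55.3 ± 2.22 FPKM (SD, n = 3 each) and a log2 fold change of 0.76 (SE 0.067). ENPP1 held place 63 among the 103 rises in which ENPP4 held place 4.

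NT5E, which produces adenosine from AMP, lies between ENPP4 and ENPP1 on the same chromosome, at 86159302 to 86205509 on the plus strand. Its levels were 125.0, 115 and 123 FPKM in shNT and 158, 162 and 161 FPKM in shGPR81. The groups did not overlap, and the shGPR81 libraries were closer to each other than the shNT libraries, with means of 120.8 ± 5.53 and 160.1 ± 1.95 FPKM (SD, n = 3 each). Its log2 fold change of 0.41 (SE 0.050) was smaller than that of ENPP1 and lay inside a fold of 1.5, while in FPKM its difference was the largest of the 9 genes.

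Promoter sequence of the 2 abundant genes that were higher, ENPP1 and NT5E, is shown here for the 250 bases before the start of the gene as RefSeq gives it on GRCh38.p14, a build other than that of the gene positions. ENPP1 lies at chr6:131807770-131808019 and NT5E at chr6:85449833-85450082, both on the plus strand and written 5' to 3'. Capitals mark the letters ACGTG (hypoxia response element core, CACGT on the other strand) and TGACG (cAMP response element half-site, CGTCA on the other strand). Another word, that of the CCAAT box (ATTGG on the other strand), was searched and had no match in either window.
ENPP1: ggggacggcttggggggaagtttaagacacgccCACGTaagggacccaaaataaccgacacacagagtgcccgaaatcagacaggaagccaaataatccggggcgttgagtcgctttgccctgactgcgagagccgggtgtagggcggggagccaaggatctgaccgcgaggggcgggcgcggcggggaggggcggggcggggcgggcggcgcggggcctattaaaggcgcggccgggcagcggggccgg
NT5E: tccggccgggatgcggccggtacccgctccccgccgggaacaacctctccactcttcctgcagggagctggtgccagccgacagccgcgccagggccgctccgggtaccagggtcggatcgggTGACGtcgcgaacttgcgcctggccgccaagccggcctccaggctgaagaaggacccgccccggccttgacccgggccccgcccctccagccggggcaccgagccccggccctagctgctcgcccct

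ENPP1 held 1 match to ACGTG, with its first base 217 bases before the start, and NT5E held 1 match to TGACG, 127 bases before the start. TGACG occurred in 21.2%, ACGTG in 18.5% and CCAAT in 32.0% of the 35116 promoter windows of this length, and no matches overlapped in these 2 windows. Both windows were rich in G and C, at 68.8% for ENPP1 and 75.2% for NT5E, beside a median of 58% over all windows. RefSeq entries were matched for 7 of the 9 genes, and ENPP2 and ENPP4 were not matched. The matches are descriptions of letters, and the letters are not shown to act in these cells.

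The windows of the other matched genes differed. ENTPD1, the gene that was lower, has 5 entries, which held 3, 0, 1, 0 and 0 matches to TGACG and none to ACGTG. ENPP5, which was listed at 0, held 1 match to ACGTG, and ENPP3, ENPP6 and ENTPD3 held neither of these words.

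ENTPD1 (CD39), an enzyme that starts the route from ATP to adenosine, lies on chromosome 10 at 97471536 to 97637023 on the plus strand. It stood at 2.33, 2.10 and 2.13 FPKM in shNT and at 1.69, 1.62 and 1.63 FPKM in shGPR81. Every shGPR81 library was below every shNT library, with means of 2.19 ± 0.12 and 1.65 ± 0.042 FPKM (SD, n = 3 each) and a log2 fold change of -0.39 (SE 0.11). Its recovered reads, 392, 362 and 359 in shNT and 305, 288 and 289 in shGPR81, gave a ratio of 0.750 (95% interval 0.686 to 0.820, counting error only). ENTPD1-AS1 is annotated on the opposite strand across ENTPD1 and stood at or below 0.0536 FPKM in every library. Whether the counting used strand is not given in the sources used here.

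ENTPD3, a second surface enzyme that removes phosphates from ATP and ADP, lies on chromosome 3 at 40428675 to 40470235 on the plus strand. Its levels were 3.63, 3.27 and 3.76 FPKM in shNT and 3.31, 4.90 and 3.95 FPKM in shGPR81. The groups overlapped because 1 shGPR81 library fell inside the shNT range while the other two lay above it, and the log2 fold change was 0.17 (SE 0.15). Leaving out shGPR81 replicate 2, the highest library, gave 0.028, and leaving out any other 1 library gave values up to 0.30. ENTPD3-AS1, annotated on the opposite strand, stood between 0.277 and 0.734 FPKM.

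ENPP3, which hydrolyses extracellular nucleotides and is known as a marker of activated basophils, lies 60597 bases before ENPP1 on the same strand of chromosome 6, at 131949582 to 132068558. It was near the limit of detection, at 0.147, 0.0239 and 0.122 FPKM in shNT and at 0.160, 0.0464 and 0.0927 FPKM in shGPR81. These values correspond to 6, 1 and 5 reads and to 7, 2 and 4 reads, with a ratio of 1.03 and a 95% interval of 0.431 to 2.46. A difference was not detectable at this depth, although the neighbouring gene ENPP1 was higher in all 3 shGPR81 libraries.

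The remaining 3 genes gave no usable level. ENPP5, a family member that lies 12496 bases beyond ENPP4 on the opposite strand of chromosome 6 at 46126922 to 46138717, was listed at 0 in all 6 libraries. ENPP6, a choline-specific phosphodiesterase gene on the minus strand of chromosome 4 at 185009859 to 185142383, was likewise listed at 0 throughout. ENPP2 encodes autotaxin, the enzyme that makes lysophosphatidate, and lies on the minus strand of chromosome 8 at 120569326 to 120685693. It was listed at 0 in the shNT libraries and at 0.0744, 0.0235 and 0 FPKM in shGPR81. No fold was formed for these 3 genes.

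Of the 9 genes, 7 were above 0 in at least 1 library, 6 were above 0 in all, and the same number passed the filter of 0.1 FPKM in at least 3 libraries. Groups did not overlap for 3 higher genes (ENPP1, ENPP4 and NT5E), as for 12.9% of all 14349 tested genes, and for 1 lower gene (ENTPD1), as for 12.7%. ENPP1 and ENPP4 were 2 of the genes past both thresholds used across all genes, an adjusted p under 0.05 and a fold above 1.5, which 0.955% of tested genes passed upward and 1.59% downward. Nothing is read from these counts, since the contrast had a part in choosing the genes. The median log2 fold change of the tested 6 was 0.29, beside 0.0081 over all tested genes.

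Within the shNT group the order of mean levels was NT5E, ENPP1, ENTPD3, ENPP4, ENTPD1 and ENPP3. ENTPD3 and ENPP4 were the only neighbours in this order whose shNT libraries overlapped. In the libraries labelled shGPR81, ENPP4 was above ENTPD3 in every library, so that their places were exchanged. The ratio of ENPP4 to ENTPD3 within a library was 0.965, 1.01 and 0.715 in shNT and 2.50, 1.83 and 2.05 in shGPR81.

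NT5E made up 73.5% to 75.6% of the summed FPKM of the 9 genes in shNT and 69.1% to 70.8% in shGPR81. The share of ENPP1 was at most 20.9% in shNT and 23.2% to 24.8% in shGPR81, and that of ENPP4 was 1.66% to 2.13% and 3.56% to 3.84%. The sum itself was 154.8 to 170.1 FPKM in shNT and 227.4 to 233.8 FPKM in shGPR81. By level, the group was thus mainly NT5E and ENPP1 in both groups of libraries, and the larger fold of ENPP4 moved a small portion of the sum.

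NT5E and ENTPD1 act one after the other on the way from ATP to adenosine, and their levels went in opposite directions. ENTPD1 is not the only gene here for the steps to AMP. ENTPD3 was above it in mean level (3.55 and 4.05 FPKM, beside 2.19 and 1.65 FPKM) and overlapped between the groups. ENPP1, which also makes AMP from ATP, was higher in shGPR81, at means of 32.6 and 55.3 FPKM. The ratio of NT5E to ENTPD1 within a library, which does not depend on the scale of the library, was 53.6, 54.5 and 57.5 in shNT. It was 93.2, 99.7 and 99.0 in shGPR81. With NT5E higher and ENTPD1 lower without overlap, this ratio had to separate the groups and is no further finding. The ratio of NT5E to ENPP1 was lower, at 2.80, 2.85 and 3.05 in shGPR81 beside 3.52, 3.62 and 3.98 in shNT.

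Of the 9 genes, 5 lie on chromosome 6. The median of this chromosome differed little between the groups: over its 574 genes whose mean reached 1 FPKM the median log2 fold change was 0.030, beside 0.0082 over all 11677 such genes. On it 10 genes were called higher and 5 lower, beside 103 and 148 over all. The 10 include ENPP4, chosen on this contrast, and ENPP1, added with earlier results known, so nothing is read from these counts. The nearest 5 tested genes on each side of ENPP4 were examined next. ENPP5, between ENPP4 and RCAN2, was not among them because it was listed at 0.

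On the side of higher coordinates, 4 of 5 neighbours were higher in every shGPR81 library than in any shNT library (12.9% of all tested genes) and 1 was lower in every one (12.7%). RCAN2, a regulator of calcineurin whose start lies 90.7 kb from that of ENPP4, stood at 0.0903, 0.0687 and 0.141 FPKM in shNT and at 0.5385, 0.8795 and 0.6695 FPKM in shGPR81. Its log2 fold change was 1.99 (SE 0.27), and it passed the filter on low values mainly through the shGPR81 libraries. The filter thus favoured its place among the 4, and nothing is read from that count. CYP39A1, an oxysterol hydroxylase gene at 419.6 kb, stood at 0.810, 0.791 and 0.844 FPKM in shNT and at 1.78, 1.56 and 1.48 FPKM in shGPR81, which is 0.90 higher on the log2 scale (SE 0.14).

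SLC25A27, a mitochondrial carrier gene at 522.9 kb, had a log2 fold change of 0.85 (SE 0.26), and ADGRF5, an adhesion receptor gene at 722.5 kb, one of 0.38 (SE 0.21). TNFRSF21, a death receptor gene at 1101.5 kb, went the other way at -0.50 (SE 0.064) and was by far the most abundant of the neighbours on this side, at means of 70.3 and 49.6 FPKM. The log2 fold changes of CYP39A1 and SLC25A27 differed by less than their SE. The intervals of SLC25A27 (0.24 to 1.45) and ADGRF5 (-0.12 to 0.88) overlapped, while TNFRSF21 differed from these genes in sign. RCAN2 is left out of this comparison because of the way it passed the filter. A trend with distance from ENPP4 was not tested, and no order is read from these values.

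On the side of lower coordinates, 4 of 5 neighbours overlapped between the groups and 1, AARS2, was higher without overlap, at a log2 fold change of 0.27. RUNX2, the osteoblast transcription factor and the nearest tested gene on this side, has its start at -801.8 kb from that of ENPP4 and had a log2 fold change of -0.026 (SE 0.12). SUPT3H, CDC5L and NFKBIE had log2 fold changes of -0.044, -0.013 and -0.15. Within 1 Mb of ENPP4 the table lists 14 symbols including ENPP4, of which 6 were tested, 5 were listed at 0 in every library and 3 were above 0 and not tested. Among those 3, CLIC5, whose start lies at -249.2 kb, did not exceed 0.0671 FPKM, so the nearest stretch on this side held no measurable gene.

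**Figure D2:**
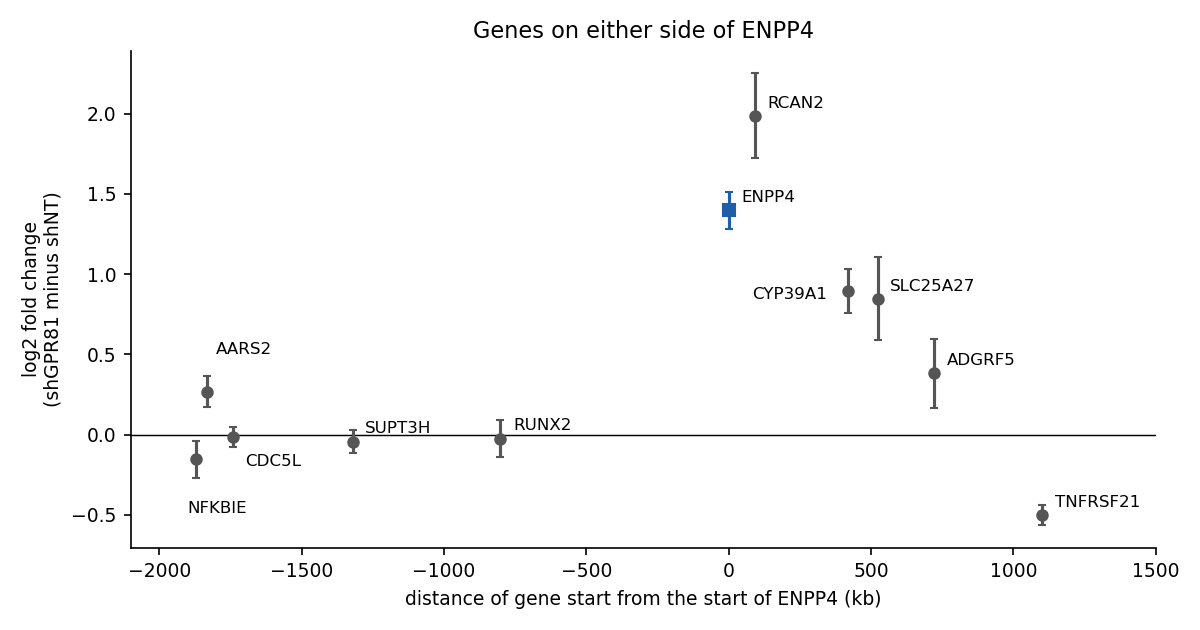
Log2 fold change (shGPR81 minus shNT, with its SE) of ENPP4 (square) and of the 5 nearest tested genes on each side (circles), against the distance of the gene start from that of ENPP4 in kb. RCAN2, CYP39A1, SLC25A27 and ADGRF5 lie above 0 on the right and TNFRSF21 below, while the left side stays between -0.15 and 0.27.

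The pathways around these enzymes were followed in 12 lists of 82 other genes, of which 52 passed the filter and 9 were listed at 0 in every library. ADORA1 passed it through the shNT libraries alone and is left out of the counts that follow. In limma over all 14349 genes, 1 of the other 51 rose (SPP1) and 1 fell (ENTPD6), while 49 did not pass both thresholds; of all tested genes, 0.955% rose and 1.59% fell. The median log2 fold change of the 51 was 0.016, beside 0.0081 over all genes, and 21 of them (41.2%) had an unadjusted p under 0.05, beside 19.5% of all tested genes. Nothing is read from this share, since the lists were chosen with earlier results of these libraries known. The 4 tested list genes on chromosome 20, a chromosome described below, are among the 21.

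ENTPD6, an NTPDase of the secretory route with a preference for diphosphates, stood at 26.0, 30.6 and 28.9 FPKM in shNT and at 18.8, 18.6 and 18.4 FPKM in shGPR81. The means were 28.5 ± 2.30 and 18.6 ± 0.20 FPKM (SD, n = 3 each), and the log2 fold change was -0.61 (SE 0.069, limma adjusted p 0.0034). ENTPD6 lies on chromosome 20 at 25176329 to 25208711 on the plus strand, and on that chromosome 257 of 267 genes whose mean reached 5 FPKM were lower, with a median log2 fold change of -0.40. The part of the whole chromosome in the fall of ENTPD6 was not tested. Without shNT replicate 2 the log2 fold change was -0.56, inside a fold of 1.5, and the call was lost at an adjusted p of 0.021 in limma. None of the 9 ectonucleotidase genes described first lies on chromosome 20.

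Of the other genes in that list, ENTPD7 was lower in every shGPR81 library without passing the test, at a log2 fold change of -0.31 (limma adjusted p 0.21), and ENTPD4 and ENTPD5 overlapped between the groups. ENPP7, ENTPD2 and ENTPD8 did not pass the filter. None of the 5 phosphatase genes that also make adenosine or clear pyrophosphate passed the filter, with the placental enzyme ALPP highest at 0.0524 FPKM or less in every library. NT5E was thus the 1 gene for the step from AMP to adenosine, among those listed, that passed the filter.

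ADORA1, an adenosine receptor that lowers cAMP, stood at 0.340, 0.581 and 0.453 FPKM in shNT and at 0.0530, 0.0536 and 0.0536 FPKM in shGPR81. Every shGPR81 library was below the filter of 0.1 FPKM, so a gene that entered in this way had to differ, and no test is given for it. Its log2 fold change depended on the pseudocount, at -1.84 with 0.1, -0.47 with 1 and -2.85 with 0.01. ADORA2B, which raises cAMP, was the abundant adenosine receptor of these cells, at 46.2, 47.4 and 51.3 FPKM in shNT and at 46.0, 45.7 and 44.6 FPKM in shGPR81. Its log2 fold change was -0.087, with a 95% interval of -0.22 to 0.042 and a limma adjusted p of 0.46. ADORA2A and ADORA3 did not pass the filter.

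SPP1 encodes osteopontin, a secreted phosphoprotein that inhibits mineral growth as pyrophosphate does. It stood at 1.37, 2.09 and 1.79 FPKM in shNT and at 3.13, 2.98 and 3.99 FPKM in shGPR81. The groups did not overlap, and the log2 fold change was 0.91 (SE 0.18, limma adjusted p 0.031). The call held without shNT replicate 1 and was lost without any 1 of the other 5 libraries, at limma adjusted p values between 0.051 and 0.10. SLC20A1, a phosphate importer and the most abundant gene of this list, was higher in every shGPR81 library at a log2 fold change of 0.22 (limma adjusted p 0.060), and the pyrophosphate exporter ANKH was also higher without overlap, with means of 16.5 and 18.5 FPKM.

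No receptor for ATP or other nucleotides passed both thresholds in limma. Of the 7 that were tested, 3 P2X and 4 P2Y receptors, 2 of each kind had an unadjusted p under 0.05. So did 19.5% of all tested genes. P2RX5, the most abundant P2X receptor, had a log2 fold change of -0.17 (95% interval -0.33 to -0.012), and P2RY11, the most abundant P2Y receptor, one of -0.011 (95% interval -0.61 to 0.58). The largest difference among them was that of P2RY6, a UDP receptor named after its values were seen, at a log2 fold change of -1.15 and a limma adjusted p of 0.095. It was below 0.1 FPKM in 2 of the shGPR81 libraries. Without shGPR81 replicate 1 its log2 fold change was -1.47. In that fit it passed the filter through the shNT libraries alone and had to differ, so no test is given for it.

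The genes that release, take up or break down nucleotides and nucleosides also had no call in limma. An unadjusted p under 0.05 was found for 2 of 6 release genes and 3 of 7 uptake and removal genes. The share over all tested genes was 19.5%. PANX1, an ATP release channel and the most abundant gene of its list, had a log2 fold change of -0.13 (95% interval -0.28 to 0.028), and SLC29A1, the adenosine transporter, at means of 96.2 and 103.7 FPKM, one of 0.12 (95% interval -0.12 to 0.35). SLC17A9, which loads ATP into vesicles, had an adjusted p of 0.018 in limma at a log2 fold change of -0.48, short of a fold of 1.5. ADA, the adenosine deaminase gene, had one of -0.67 with a limma adjusted p of 0.074. It was called in limma without shNT replicate 1 (adjusted p 0.030) and without shGPR81 replicate 3 (adjusted p 0.042). Without any 1 of the other libraries it was not called, at limma adjusted p values of 0.16 to 0.23. Both of these genes lie on chromosome 20, and the part of the chromosome in their values was not tested.

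The cGAMP sensing list, which follows a substrate of ENPP1, had 0 calls among 8 tested genes in limma. Of these, 2 had an unadjusted p under 0.05, beside 19.5% of all tested genes. TMEM173, which encodes the cGAMP receptor STING, had a log2 fold change of 0.41 with a limma adjusted p of 0.027, short of a fold of 1.5. The channel subunit LRRC8A, the most abundant of the list, had one of 0.18 (limma adjusted p 0.23). SLC19A1 was listed at 0 in every library.

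Further lists covered lysophosphatidate, the product of ENPP2, choline compounds, on which ENPP6 acts, and diadenosine polyphosphates, substrates of ENPP4. They had 0 calls among 5, 6 and 2 tested genes in limma. An unadjusted p under 0.05 was reached by 2, 2 and 0 of them, beside 19.5% of all tested genes. PPAP2C, a phosphatase of lysophosphatidate, had a log2 fold change of 0.24 (limma adjusted p 0.11), and PCYT1A, the regulated enzyme of phosphatidylcholine synthesis, one of 0.050 (limma adjusted p 0.72). NUDT2, the intracellular hydrolase of diadenosine tetraphosphate, had a log2 fold change of 0.015 with a 95% interval of -0.15 to 0.18, while ENPP4 stood at 1.40. The plot of fold changes by list shows the ectonucleotidases beside all 52 tested genes.

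**Figure D3:**
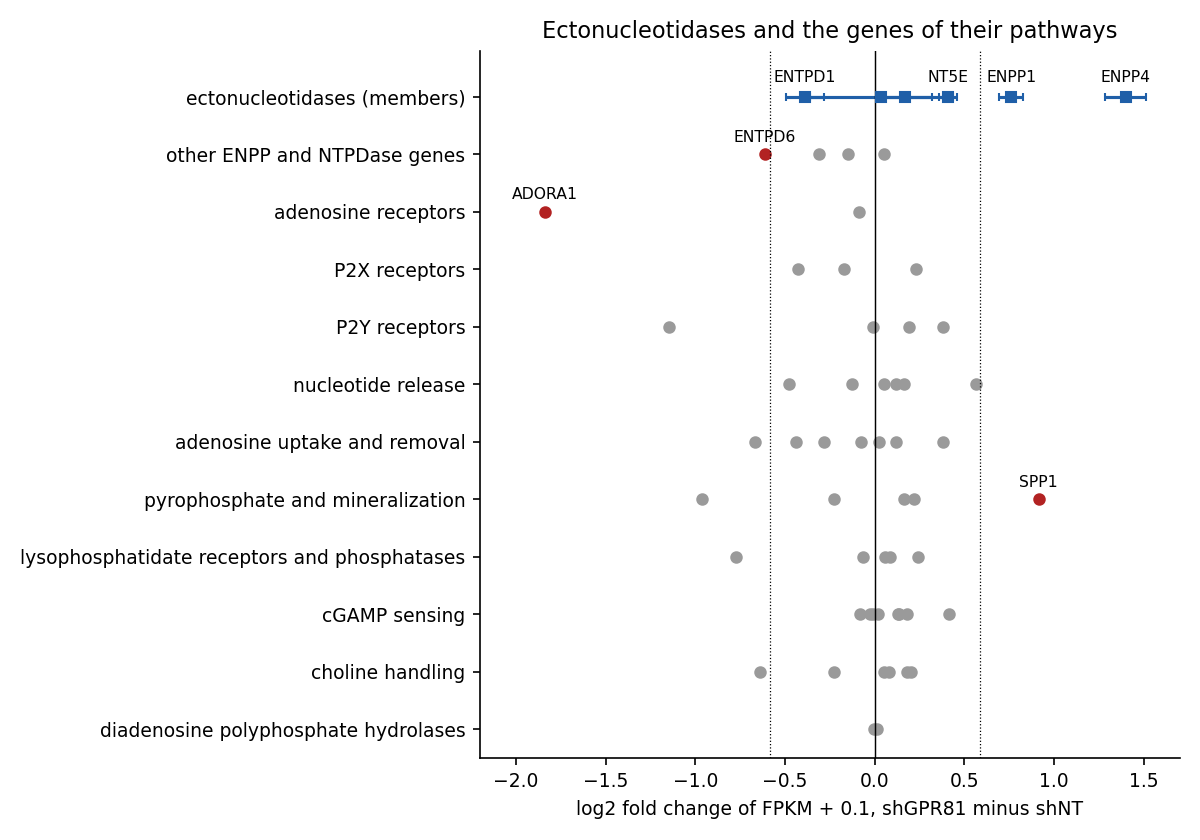
Log2 fold change (shGPR81 minus shNT) of the 6 tested ectonucleotidase genes (blue squares with SE) and of the 52 tested genes of the pathway lists (circles, red where past both thresholds), 1 row per list with a tested gene, with dotted lines at a fold of 1.5. ENPP4 lies at 1.40 and ENPP1 at 0.76, and of the circles SPP1 (0.91) and ENTPD6 (-0.61) are past both thresholds. ADORA1 (-1.84) is also drawn in red, but it passed the filter through the shNT libraries alone and had to differ, so its colour is no result.

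The profile of ENPP4 over the 6 libraries was compared with those of 11676 other genes whose mean reached 1 FPKM, as the Euclidean distance between log2 values centred on their mean. The 5 nearest were IL7 (distance 0.30), TRIML2 (0.36), SERPINB2 (0.36), GUCY1B3 (0.39) and FBP1 (0.39). IL7 is a growth factor of lymphocytes, SERPINB2 an inhibitor of plasminogen activators, GUCY1B3 a subunit of soluble guanylate cyclase and FBP1 an enzyme of gluconeogenesis. All 5 were higher in every shGPR81 library, with log2 fold changes of 1.11 to 1.37, and they share with ENPP4 the libraries and the step between the 2 groups. ENPP4 was chosen on that step, so genes this near to it had to be higher too. SERPINB2 was the nearest in level too, at means of 3.91 ± 0.51 and 8.54 ± 0.33 FPKM (SD, n = 3 each), and had the same low shNT library as ENPP4. By Pearson correlation, which disregards the size of the change, 2 of these 5 (SERPINB2 and IL7) stayed among the first 5.

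By the same distance the other ectonucleotidases stood at place 51 (ENPP1), 308 (NT5E), 2085 (ENTPD3) and 11032 (ENTPD1) of the 11676 genes. This order is that of their log2 fold changes (0.76, 0.41, 0.17 and -0.39). The distance mostly follows the step between the groups, on which ENPP4 was chosen, so the order is no further finding.

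**Figure D4:**
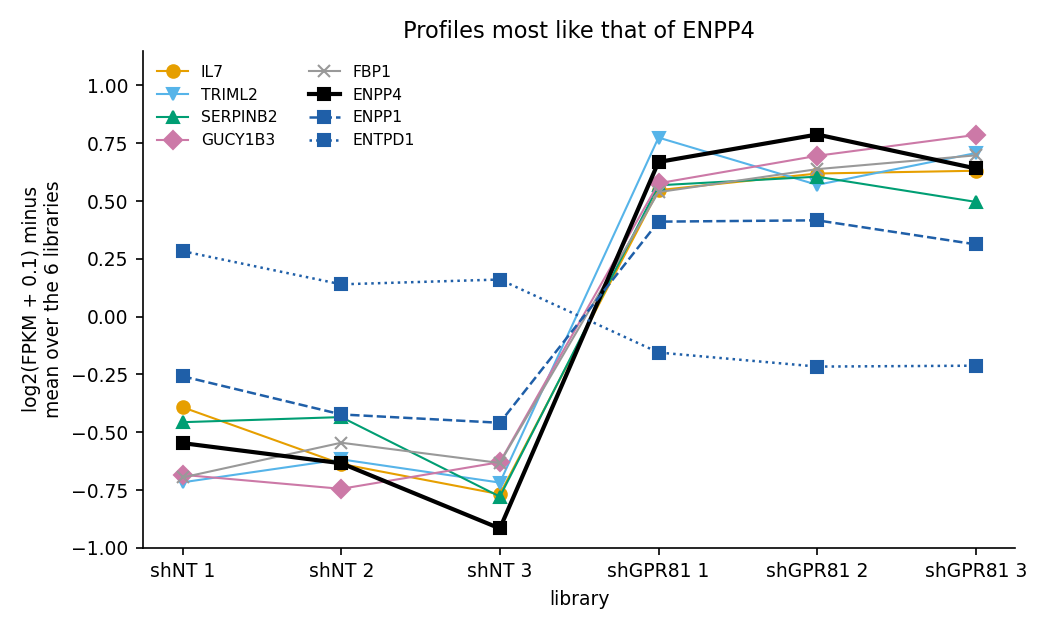
Log2(FPKM + 0.1) minus its mean over the 6 libraries, for ENPP4 (thick black line), the 5 genes nearest to it, ENPP1 (dashed) and ENTPD1 (dotted). ENPP4 and the 5 genes step up together between shNT and shGPR81, ENPP1 steps up by less (0.76 in log2) and ENTPD1 steps down (-0.39).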

How the data were processed

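RNA of MDA-MB-231 cells was sequenced in 3 shNT and 3 shGPR81 libraries. According to the study's methods, stranded mRNA libraries were read single-end and mapped to the human genome (hg19) with TopHat. The submitters' processing notes name TopHat2 2.0.13, Bowtie2 2.2.3, SAMtools 0.1.19 and Cuffnorm 2.2.1, and also a mouse build (mm10), while the cells are human. The authors deposited FPKM values, 1 per gene symbol and library, scaled by transcript length and library size. The annotation, the strand setting and the treatment of multimapping reads are not given in the sources used here.

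FPKM were compared as log2(FPKM + 0.1) with limma 3.58.1 (lmFit, eBayes with trend) under R 4.3.3. The 14349 genes that reached 0.1 FPKM in 3 libraries entered the fit, and p-values were adjusted across them by Benjamini-Hochberg. Calls needed an adjusted p below 0.05 together with a fold over 1.5. The fit was tested on simulated data. The labels do not say whether replicates were separate cultures, so p-values measure only the spread between these libraries, which may be technical. Reads were sought in the 15931 genes above 0 in at least 3 libraries. They were recovered in the 6759 whose 6 values were whole multiples of 1 step, within a relative tolerance of 3e-05. Replicate libraries differed by more than counting noise. Read intervals are at 95% and cover counting error only.

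The 9 genes and the pathway lists were chosen with earlier results of these data known. Named genes were all 9, the pathway genes past both thresholds, the gene of highest mean in each list, HCAR1, the 5 nearest tested genes on each side of ENPP4 and the 5 most similar profiles; ENTPD7, ENTPD4, ENTPD5, ANKH, P2RY6, SLC17A9, ADA, TMEM173 and genes below the filter were added after their values were seen. Gene positions are those of GENCODE release 44 on GRCh37. Alternatives were pseudocounts of 1 and 0.01, a filter of 1 FPKM and no filter, median centring, quantile normalization, a replicate block, limma's treat and leaving out each library.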

Additional observations from a re-analysis of the deposited data

How the results depend on the processing

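Among the tested ectonucleotidases, ENPP1, ENPP4, NT5E, ENTPD1 and ENTPD3 kept the sign of their log2 fold change in all 13 alternatives computed for each, and ENPP3 in 8 of 9, with -0.27 as its lowest value. With a pseudocount of 1 the values were 1.19 for ENPP4 and -0.27 for ENTPD1. Of all genes, 137 were called higher and 228 lower; these counts were 75 and 142 with a pseudocount of 1, 9 and 46 with limma's treat, and 68 to 156 and 110 to 238 with 1 library left out, lowest higher without shGPR81 replicate 2 and lowest lower without shNT replicate 2. The 3 calls among pathway genes include ADORA1, which had to differ, so that call is no result. The calls became 0 in limma's treat, with 1 gene (ADORA1) at an unadjusted p under 0.05. With 1 library left out they numbered 0 to 3. The 0 was reached without shNT replicate 2, with 16 at an unadjusted p under 0.05, and 1 call was left without shNT replicate 3. Without shGPR81 replicate 1 the calls include ADORA1 and P2RY6, which both entered that fit through the shNT libraries alone. The other settings, apart from the replicate block, gave 2 to 4. The log2 fold change of HCAR1 stayed negative and short of the threshold throughout, between -0.78 and -0.22 with 1 library left out. Replicate numbers did not pair the libraries: the deviations of same-numbered libraries correlated at 0.12, 0.022 and 0.0058 across genes, and 3 of 6 libraries correlated best with their own number. With the replicate block, 115 genes were called higher, 197 lower and 5 among the pathway genes, with ADA and GPCPD1, both on chromosome 20, added. The cause of these changes was not tested. Depth limits ENPP3, at 1 to 7 reads, and ENPP2, and groups of 3 libraries cannot reach an exact p below 0.1.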
